A study of Homo sapiens with 2 samples.

Results

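The genes that mark differentiated gastric mucosa were followed in MKN74 and MKN45, a pair of established gastric cancer cell lines, after knockdown of SET7/9, a lysine methyltransferase encoded by SETD7. The members were 10 genes chosen by name, PGC, TFF1, TFF2, MUC5AC, MUC6, GKN1, GKN2, LIPF, ATP4A and GAST, and all 15 probes the array carries under those names were used, of 34127 gene probes for 25940 gene names in all. In each cell line, cells electroporated with 50 nM SET7/9 siRNA and cells given the same dose of negative control siRNA were collected after 48 hours, and both RNAs were hybridised to 1 Agilent array. The siRNA-treated RNA carried Cy5 and the control RNA Cy3 on both arrays, with no dye swap. The cells came from culture in RPMI1640 with serum, no genetic modification of either line was stated, and which of the SET7/9 siRNAs was hybridised was not given in the sources used here. With 1 array per cell line there were no replicates, so a ratio within 1 line has no test, and the errors printed below come from the scanner software's model of a spot rather than from repeated cultures.

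The stomach lining holds several epithelial cell types with their own products. Surface mucous cells make the gel-forming mucin MUC5AC, the trefoil peptide TFF1 and the gastrokines GKN1 and GKN2, whereas neck and gland mucous cells make MUC6 and TFF2. Chief cells secrete the zymogen pepsinogen C (PGC) and gastric lipase (LIPF), parietal cells carry the proton pump subunit ATP4A, and G cells of the antrum secrete gastrin (GAST), the hormone that drives acid secretion. Gastric cancers keep these programs to very different degrees, and cultured lines often lose the gland products.

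The 60-base probes that carry the values below are shown as printed on the array, in the direction of the transcript, because genes with several probes gave different readings. All positions are on GRCh37. The PGC upstream probe lies on chromosome 6 from 41712469 to 41712528 on the minus strand, and the array file assigns it to transcript variant 2. The PGC downstream probe is assigned to variant 1 and spans 604 genomic bases, from 41707683 to 41708286, so that its 60 bases are split across an intron.
PGC upstream probe: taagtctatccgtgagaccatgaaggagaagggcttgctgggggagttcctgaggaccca
PGC downstream probe: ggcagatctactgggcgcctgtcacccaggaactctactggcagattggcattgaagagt

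The trefoil probes lie in coding sequence on chromosome 21, TFF1 from 43783440 to 43783499 and TFF2 across 999 genomic bases from 43766648 to 43767646, both on the minus strand. Capitals mark the TGT and TGC codons in the reading frame that holds most of them, 2 in each probe; cysteines hold the loops of the trefoil fold together.
TFF1 probe: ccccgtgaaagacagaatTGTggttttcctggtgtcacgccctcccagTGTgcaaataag
TFF2 probe: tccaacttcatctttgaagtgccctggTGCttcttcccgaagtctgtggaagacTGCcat

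MUC5AC had 3 probes, called probes 1 to 3 below, of which probe 1 was the one measured in every RNA sample.

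The GAST probe lies on chromosome 17 from 39872073 to 39872132 on the plus strand and runs over the end of the coding sequence. Capitals mark the 12 bases that encode the C-terminal tetrapeptide, the part of gastrin that its receptor binds. MUC6 had 3 probes on the minus strand of chromosome 11, of which probe 1, from 1015815 to 1015874, was the one measured in every RNA sample.
GAST probe: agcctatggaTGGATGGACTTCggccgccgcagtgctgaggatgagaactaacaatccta
MUC6 probe 1: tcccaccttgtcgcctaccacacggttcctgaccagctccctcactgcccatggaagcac

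Of all gene probes, 54.6% and 60.4% were well above background in Cy3 and Cy5 in MKN74, and 59.7% and 66.6% in MKN45. A probe was kept if it was well above background in at least 1 channel, and 20674 probes in MKN74 and 22830 in MKN45 met this; a channel below that limit is called dim. The SETD7 probe from 140427692 to 140427751 on chromosome 4 had a log2 ratio of SET7/9 siRNA over control of -2.03 ± 0.28 in MKN74 and -1.95 ± 0.28 in MKN45, while its other probe, from 140453844 to 140453903, was at 0.24 ± 0.22 and -0.23 ± 0.21. Epithelial identity was checked on 5 genes, EPCAM, CDH1, KRT8, KRT18 and KRT19, all of which were well above background in both lines. Of 5 markers of blood, stromal and endothelial cells, COL1A1 was measured in both lines and PTPRC and PECAM1 in MKN45 close to the lowest detectable level, with CD3E and COL1A2 dim in the control RNA of both.

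Detection separated the members before any ratio was taken. In MKN74, 8 of the 15 probes, for 7 of the 10 genes, were kept, and in MKN45 11 probes for 7 genes. Only 4 probes, 1 each for PGC, TFF1, MUC5AC and MUC6, were well above background in all 4 RNA samples, and 7 were kept on both arrays. The gastrokines GKN1 and GKN2 and MUC6 probe 3 were dim in all 4 samples, so these arrays give no reading of the gastrokines. ATP4A was measured only in the SET7/9 siRNA sample of MKN74 and LIPF only in that of MKN45. Every member probe was printed once per array, so no repeated spots back a single value. The lowest signal called well above background was 17.4 in Cy3 and 9.96 in Cy5 in MKN74 and 15.9 and 8.89 in MKN45, and PGC, LIPF and ATP4A lay close to it wherever they were measured.

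**Figure D1:**
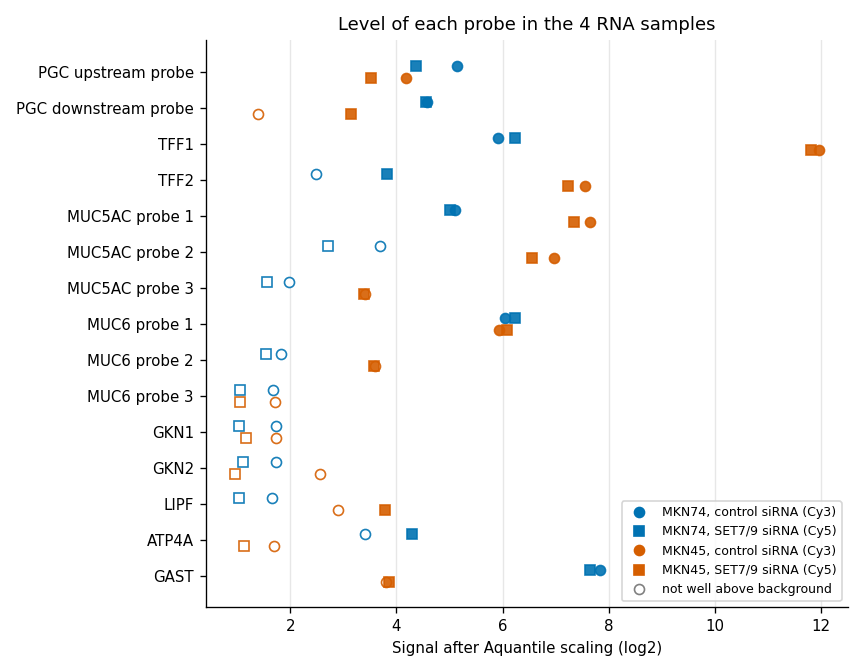
Level of each of the 15 member probes (rows) in the 4 RNA samples, as log2 signal after scaling across channels and arrays; blue is MKN74, orange MKN45, circles control siRNA (Cy3), squares SET7/9 siRNA (Cy5), and open symbols lie in a channel that was not well above background. The trefoil and MUC5AC probes sit to the right in MKN45 (TFF1 at 11.96 against 5.92 in Cy3), GAST in MKN74 (7.85 against 3.80), and within a line circle and square of a bright probe nearly coincide.

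PGC encodes the pepsinogen that chief cells keep in zymogen granules, and it was the one member whose ratio passed 1.5-fold with both channels measured. At the upstream probe the signal in MKN74 was 28.7 with control siRNA and 16.6 with SET7/9 siRNA, a log2 ratio of -0.79 ± 0.37, or 1.73-fold lower. In MKN45 the signals were 23.5 and 14.9, a log2 ratio of -0.65 ± 0.38, or 1.57-fold lower. In both lines the sample with SET7/9 siRNA was the lower one, and all 4 signals were within a few-fold of the lowest detectable signal. At the downstream probe the signals in MKN74 were 19.1 and 18.9, a log2 ratio of -0.01 ± 0.38. In MKN45 they were 3.15, which is dim, and 10.6, a listed log2 ratio of 1.76 ± 0.88 for which the detection limit leaves no fold above 1. The PGC probes therefore gave different readings in both lines, with the lower ratio at the upstream probe alone. PGC is one of the genes the study picked from these same arrays, so its direction here is not independent evidence. The paper also reported the PGC change in both lines by RT-PCR and qRT-PCR, and changed expression in KATO-III and AGS cells. It reported PGC activation when SET7/9 was overexpressed in another gastric cancer line. The background was also corrected by normexp with an offset of 50 and the dyes by loess. The upstream ratios were then -0.11 and -0.12, and neither passed 1.5-fold. That offset is larger than all 4 upstream signals and pulls their ratios toward 0. This setting therefore cannot tell whether the lower ratio holds.

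The trefoil peptides TFF1 and TFF2, small secreted proteins that protect and help to close the mucosal surface, did not pass 1.5-fold where both channels were measured. TFF1 signals were 54.0 with control siRNA and 67.4 with SET7/9 siRNA in MKN74, a log2 ratio of 0.32 ± 0.23. In MKN45 the TFF1 signals were 3557 and 3233, a log2 ratio of -0.14 ± 0.20, so the ratios had opposite signs and each was below the 1.5-fold cutoff. TFF2 in MKN45 was at 190.0 and 151.6, a log2 ratio of -0.33 ± 0.21. In MKN74 TFF2 was dim with control siRNA (4.23) and measured with SET7/9 siRNA (10.6); the listed log2 ratio of 1.32 ± 0.87 passed 1.5-fold, but no fold above 1 is left at the detection limit.

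The gel-forming mucins were close to level under SET7/9 siRNA. MUC5AC probe 1 was at 28.4 and 26.5 in MKN74 and at 200.4 and 163.8 in MKN45, log2 ratios of -0.10 ± 0.30 and -0.29 ± 0.21. MUC5AC probe 2 was dim in MKN74 and at 133.3 and 99.1 in MKN45, a log2 ratio of -0.43 ± 0.21, and probe 3 had a log2 ratio of -0.01 ± 0.47 in MKN45 with the control channel dim. Both MUC5AC probes measured in both channels in MKN45 were therefore lower with SET7/9 siRNA, by less than the cutoff, and their errors overlap. MUC6 probe 1 was at 59.3 and 68.0 in MKN74 and at 68.3 and 76.1 in MKN45, log2 ratios of 0.20 ± 0.23 and 0.16 ± 0.22. MUC6 probe 2 was measured only with SET7/9 siRNA in MKN45, with a log2 ratio of -0.03 ± 0.40. No MUC6 ratio in either line was larger than its error.

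The remaining gland products gave little to read. GAST was at 233.7 with control siRNA and 204.7 with SET7/9 siRNA in MKN74, a log2 ratio of -0.19 ± 0.21. In MKN45 GAST was at 18.0, just dim, and 18.9, a log2 ratio of 0.07 ± 0.39, which was smaller than its error. LIPF, the acid-stable lipase of chief cells, was at 9.85, dim, and 18.3 in MKN45, a listed log2 ratio of 0.89 ± 0.46 with a bound of at least 1.15-fold higher. ATP4A, the catalytic subunit of the gastric proton pump, was at 8.16, dim, and 15.2 in MKN74, a listed log2 ratio of 0.90 ± 0.59 with no fold above 1 left at the detection limit. LIPF in MKN74 and ATP4A in MKN45 were dim in both channels.

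**Figure D2:**
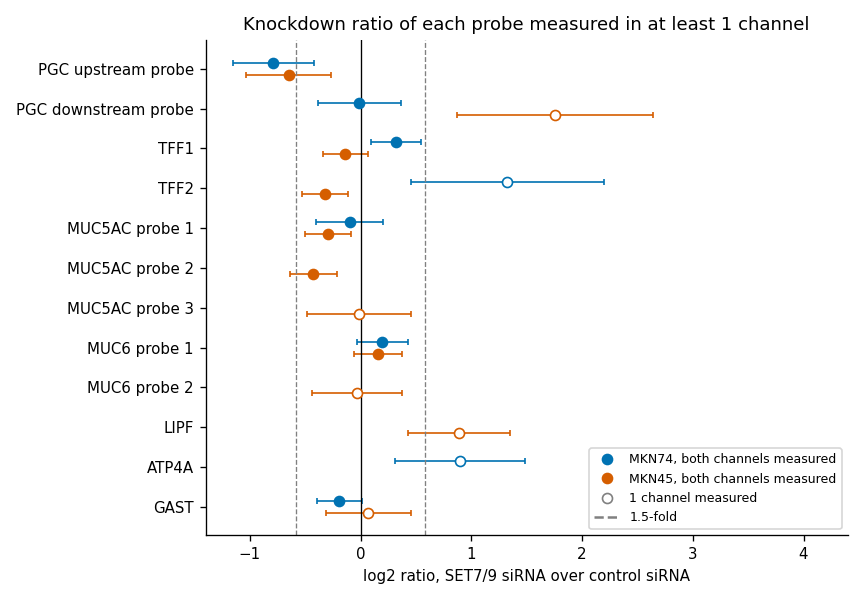
Log2 ratio of SET7/9 siRNA over control siRNA for the member probes measured in at least 1 channel (rows), in MKN74 (blue) and MKN45 (orange); bars are the error of the spot from the scanner software, open symbols have 1 channel that was not well above background, and dashed lines mark 1.5-fold. The filled points past a dashed line are those of the PGC upstream probe (-0.79 and -0.65), and all points beyond 1.5-fold on the right are open.

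Counted over the kept probes, 1 of 8 in MKN74 was at least 1.5-fold lower with SET7/9 siRNA, against 1.76% of all kept probes, and 2 of 8 were at least 1.5-fold higher, against 3.78%. In MKN45 1 of 11 was lower, against 1.97% of all, and 2 of 11 were higher, against 4.81%. With both channels required, 1 of 6 probes was lower in each line, the PGC upstream probe, against 1.45% of all probes so measured in MKN74 and 1.62% in MKN45, and 0 of 6 were higher, against 0.64% and 0.814%. The median log2 ratio of the kept member probes was 0.09 in MKN74 and -0.03 in MKN45, beside 0.01 and 0.01 over all kept probes. With 1 lower probe among so few, these counts describe the members and no share can be told from the background.

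A fit over both arrays in limma, which treats the cell lines as replicates and leaves 1 residual degree of freedom, tested 19595 probes, 7 of them members. No probe, member or other, passed an adjusted p of 0.05 in either direction, which is 0% of those tested, and 2569 probes had an unadjusted p under 0.05. Of the 7 members tested, 1 was among these, the PGC upstream probe. That share is close to the share of 2569 in 19595 over all probes. The PGC upstream probe had a mean log2 ratio of -0.72 with a standard error of 0.08. Its limma p was 0.0018 unadjusted and 0.33 adjusted, and it was lower in 2 of 2 cell lines. The other members had limma adjusted p-values from 0.40 to 0.78. The design is too small to show that a member did not change.

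TFF1, TFF2, MUC5AC and GAST differed between the cell lines by several-fold, whereas MUC6 and PGC gave no such difference. The comparison was made on signals scaled across both channels and both arrays (Aquantile in limma), first in the control siRNA samples (Cy3) and then, side by side, in the SET7/9 siRNA samples (Cy5). It sets 1 culture per line and treatment against another, so cell line and array cannot be told apart, and a lower level cannot be split into fewer expressing cells and less RNA per cell. Of the 17414 probes with Cy3 measured in both lines, 23.9% were at least 1.5-fold higher in MKN45 and 32.5% at least 1.5-fold higher in MKN74, so a difference of that size was common.

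TFF1 stood apart even against that background. Its Cy3 level was 5.92 in MKN74 and 11.96 in MKN45 on the log2 scale, a difference of 6.04 ± 0.23, or 65.7-fold, which ranked 25 of 17414 probes. In the SET7/9 siRNA samples the levels were 6.24 and 11.82, a difference of 5.58 ± 0.21, or 47.9-fold, where 24.2% of the 19536 probes measured in both lines were at least 1.5-fold higher in MKN45 and 34.1% in MKN74. Both MKN45 samples lay above both MKN74 samples. With normexp correction the Cy3 difference was 5.02.

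TFF2 and MUC5AC were also higher in MKN45. TFF2 was dim in the MKN74 control sample and at a level of 7.56 in MKN45, at least 8.55-fold higher in MKN45, where 53.8% of the 2964 probes measured in Cy3 in MKN45 alone had a bound of 1.5-fold or more. In the SET7/9 siRNA samples TFF2 was measured in both lines, at 3.81 and 7.24, a difference of 3.42 ± 0.35, or 10.73-fold. MUC5AC probe 1 was at 5.10 in MKN74 and 7.64 in MKN45 in Cy3, a difference of 2.54 ± 0.28, or 5.82-fold, and at 5.005 and 7.35 in Cy5, a difference of 2.35 ± 0.23. MUC5AC probe 2 gave a bound of at least 5.71-fold higher in MKN45 in Cy3 and at least 7.32-fold in Cy5, so that the probes which could be compared had the same direction. Under other scalings the MUC5AC probe 1 difference kept its direction and ranged from 1.45 with normexp to 3.002 with 75th percentile scaling. The TFF2 bound ranged from 3.56 to 12.4 under the same settings, and its direction was fixed by detection.

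GAST ran the other way. It was at a Cy3 level of 7.85 in MKN74 and dim in MKN45, with a bound of 16.5-fold higher in MKN74. The dim level of 3.80 was above the lowest level called well above background, so this bound equals the ratio of the scaled levels. Of the 1235 probes measured in Cy3 in MKN74 alone, 99.9% had a bound of 1.5-fold or more, so passing that cutoff says nothing here; the size of the bound is what the probe adds. In the SET7/9 siRNA samples GAST was measured in both lines, at 7.65 and 3.87, a difference of -3.79 ± 0.26, or 13.8-fold, and both MKN74 samples lay above both MKN45 samples. The unscaled signals were 233.7 and 204.7 in MKN74 against 18.0 and 18.9 in MKN45. The bound was 13.0-fold without scaling and 3.64-fold with normexp.

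With Aquantile scaling, MUC6 was alike in the lines within its error. Probe 1 was at 6.05 in MKN74 and 5.92 in MKN45 in Cy3, a difference of -0.12 ± 0.24, and at 6.24 and 6.08 in Cy5, a difference of -0.16 ± 0.21. With 75th percentile scaling the Cy3 difference was 0.39, larger than the error of 0.24, and without scaling 0.21, so its sign is not settled. PGC depended on the scaling: its upstream probe was at 5.15 in MKN74 and 4.18 in MKN45 in Cy3 with Aquantile scaling, a difference of -0.97 ± 0.37, which was -0.29 without scaling, -0.11 with 75th percentile scaling and -0.14 with normexp. The downstream probe had a bound of at least 1.98-fold higher in MKN74, which was 1.06-fold with 75th percentile scaling. No difference in PGC between the lines can be read from these values.

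Counted by probe, 2 of the 4 members measured in Cy3 in both lines were at least 1.5-fold higher in MKN45 and 1 was at least 1.5-fold higher in MKN74, against the 23.9% and 32.5% given above. In Cy5 3 of 7 were higher in MKN45 (TFF1, TFF2 and MUC5AC probe 1) and 3 of 7 in MKN74 (GAST and both PGC probes). The PGC probes count here under Aquantile scaling, and their difference in Cy3 depended on the scaling.

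**Figure D3:**
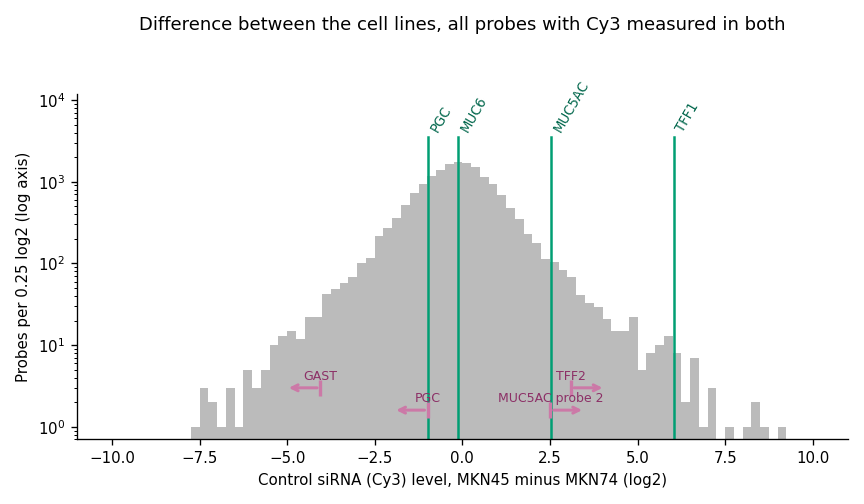
Number of probes (log axis) by the difference in control siRNA level between MKN45 and MKN74 in log2 units, for the 17414 probes measured in Cy3 in both lines (grey); green lines mark the 4 member probes so measured (MUC5AC is probe 1, PGC the upstream probe), and pink arrows start at the bound of members measured in 1 line and point away from 0. TFF1 lies at 6.04 in the right tail, MUC6 at -0.12 in the centre, and the bound of GAST lies at 16.5-fold to the left.

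The same comparison was made for a wider list of 43 genes of the stomach, of which 40 had a probe under their name or a synonym (54 probes); PGA4, PGA5 and LYZ were not analysed here. Of these 40 genes, 9 were well above background in the control sample of MKN74 and 21 in that of MKN45, with 7 in both, 14 in MKN45 alone and 2 in MKN74 alone. Over all gene names on the array, 56.1% were measured in MKN74 and 61.0% in MKN45, with 8.32% in MKN45 alone and 3.43% in MKN74 alone. These lists were written with earlier results of these data known, and the genes named from here on for the difference between lines were chosen after their values were seen.

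Surface and neck cell genes carried most of the gap. Of 11 such genes, 10 were measured in the control sample of MKN45 and 2 in that of MKN74. TFF3, listed in this group although it is the trefoil peptide of goblet cells, had the largest bound in it. Over its 3 probes the bounds ran from at least 18.7-fold to at least 281-fold higher in MKN45. CLDN18, a tight junction protein that marks gastric epithelium, was at a Cy3 level of 9.92 in MKN45 and dim in MKN74, at least 43.8-fold higher in MKN45. The gastric lineage genes ANXA10 and VSIG1 were at least 110-fold and at least 147-fold higher in MKN45, and CTSE, an aspartic protease of surface cells, at least 112-fold. PSCA and AQP5 were the 2 genes of this group measured in Cy3 in both lines, with differences of -1.35 and -0.24, and CAPN9 was dim in both. In the SET7/9 siRNA samples CTSE and CAPN8 were also measured in MKN74, at signals of 20.4 and 11.5, and were 75.3-fold and 19.1-fold higher in MKN45. In the control samples, 10 of these 11 listed genes were thus measured in MKN45, and only PSCA and AQP5 in MKN74. The 5 intestinal markers given below were also measured more often in MKN45, 5 against 3 in MKN74. Detection fixed the direction of the bounds of this group and of the transcription factors, so other scalings could change only their size. With normexp the bounds were smaller, 34.4-fold for ANXA10, 38.2-fold for VSIG1 and 28.9-fold for CTSE, an alternative chosen after seeing the data.

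Transcription factors of the foregut followed the same order. Of 11, 8 were measured in the control sample of MKN45 and 3 in that of MKN74, FOXA1, FOXQ1 and SPDEF. SOX2, a regulator of foregut and stomach identity, was at a Cy3 level of 10.05 in MKN45 and dim in MKN74, at least 48.2-fold higher in MKN45. GATA6 was at least 173-fold higher in MKN45, FOXA2 at least 197-fold and BARX1, a regulator of stomach mesenchyme, at least 23.6-fold. GATA4 had 4 probes, with bounds from at least 1.92-fold to at least 12.9-fold at 3 of them and no fold above 1 at the other. FOXA1, at its probe measured in both lines, was 4.11 log2 units higher in MKN45 in Cy3 and 3.03 in Cy5. Its control signal in MKN74, 23.3, was close to the lowest detectable signal, and the other FOXA1 probe was dim in both control samples.

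**Figure D4:**
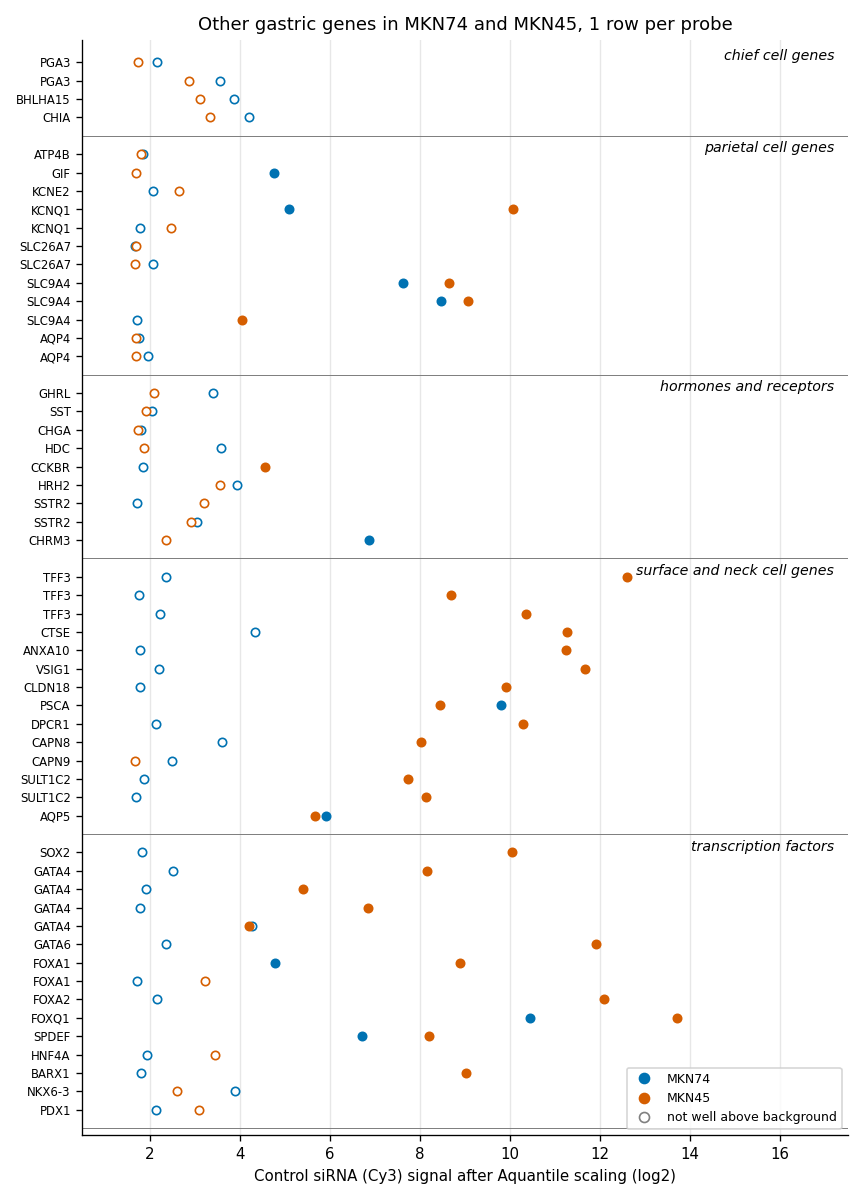
Control siRNA (Cy3) level in log2 units after scaling across arrays, for the 54 probes of the wider gastric list, grouped by role, with MKN74 in blue and MKN45 in orange; open symbols were not well above background. Filled orange points far right of open blue points fill the surface and neck group and much of the transcription factor group (FOXA2 at 12.09 against a dim 2.15), whereas chief cell genes are open in both lines.

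Chief cell, parietal cell and endocrine genes were mostly dim in both lines. None of the 3 chief cell genes with a probe (PGA3, BHLHA15 and CHIA) was measured in a control sample. Of 7 parietal cell genes, 3 were measured in MKN74 and 2 in MKN45; ATP4B, the partner subunit of ATP4A, was dim throughout, KCNQ1, a potassium channel subunit, was 4.99 log2 units higher in MKN45 at the probe measured in both lines, and GIF, which encodes intrinsic factor, was measured in MKN74 alone. Of 8 hormone and receptor genes, CCKBR, the receptor of gastrin, was measured in MKN45 alone at a level of 4.56, and CHRM3, the muscarinic receptor of parietal cells, in MKN74 alone, at least 9.69-fold higher there. The CCKBR bound in the control samples was 1.065-fold higher in MKN45, which is close to no difference, and 1.89-fold with 75th percentile scaling. In Cy5 the CCKBR bound was 2.71-fold higher in MKN45. GAST was dim in the control sample of MKN45 but measured in its Cy5 sample. A link between GAST and CCKBR was not tested. Of 5 intestinal markers, 3 were measured in MKN74 and 5 in MKN45: CDX2 was at 9.60 in MKN74 and 9.70 in MKN45, whereas LGALS4 was at least 960-fold and VIL1 at least 172-fold higher in MKN45.

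With SET7/9 siRNA few probes of the wider list passed the cutoff. Of 16 kept probes in MKN74, 0 were at least 1.5-fold lower and 1 was higher, and of 37 in MKN45, 1 was lower and 2 were higher, beside the 1.76%, 3.78%, 1.97% and 4.81% given above. FOXA1 in MKN74 had a log2 ratio of 0.85 ± 0.30 with both channels measured, but -0.23 ± 0.21 in MKN45. The FOXA1 control signal in MKN74 was 23.3, close to the lowest detectable signal, and the SD over its 10 spots was 0.29. PSCA, a small membrane-anchored protein of the gastric surface, had a log2 ratio of -0.68 ± 0.21 in MKN45 and -0.40 ± 0.21 in MKN74, lower in both lines and past 1.5-fold in MKN45. With normexp and loess neither gene passed 1.5-fold. The normexp offset of 50 is larger than both FOXA1 signals in MKN74 (23.3 and 41.2) and pulls ratios toward 0. It acts less on PSCA in MKN45, at signals of 337.0 and 210.5, but shrinks that ratio too. This setting therefore does not decide either ratio. The median log2 ratio over the kept probes of the list was 0.17 in MKN74 and 0.00 in MKN45.

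The probes most like a member in their pattern were taken over 3 log2 ratios, the knockdown ratio in each line and the Cy3 difference between lines, among the 17362 probes measured in both channels of both arrays. Nearest to TFF1 were HKDC1, TOR3A and MAGEA6, at distances of 0.09, 0.13 and 0.24 log2 units. Nearest to MUC5AC probe 1 were TMEM141, ND6 and AGPHD1, at 0.09, 0.10 and 0.13, and nearest to MUC6 probe 1 were ZCCHC10, USE1 and MIR22HG, at 0.02, 0.02 and 0.04. Nearest to the PGC upstream probe were FAM69A, BRPF3 and AK123300, at 0.11, 0.22 and 0.23. MUC6 lies in the dense centre of the distribution, where near neighbours are many.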

How the data were processed

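RNA of 2 cell lines was measured on 1 two-colour Agilent array each. Per the file headers and labels, the files the authors deposited came from Feature Extraction 10.7.3.1 and hold background-subtracted, dye-normalized intensity per channel, a log10 ratio of Cy5 to Cy3, a score for its error from the software's error model, and detection flags. The authors also deposited log2 ratios rounded to 2 decimals. Signals not above background are surrogate values there, so ratios of dim probes are unreliable.

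Log10 ratios were converted to log2, spots of a probe were averaged after control and outlier spots had been removed, and a channel counted as measured if at least 50% of spots were well above background. Members and lists were chosen with earlier results of these data known. Levels between lines used Aquantile scaling (limma 3.58.1, R 4.3.3). For a probe with 1 dim value, the bound set the dim value to the higher of its own signal and the lowest signal well above background there; without dye swaps it is open to dye bias. The error of a level difference combines the scanner's signal errors. Both arrays were tested against 0 in limma with Benjamini-Hochberg adjustment. No depth exists for arrays; their number limits the precision. Named genes are all member probes, SETD7, genes of the wider list past 1.5-fold with both channels measured, and the 3 nearest genes by Euclidean distance. RefSeq accessions of 12 member probes were looked up in a GRCh38.p14 gene table, and 11 were found, all with the same symbol; that table was used for names only. Alternatives were background correction, centring, filter, cutoff, scaling between arrays and, chosen after seeing the data, Cy5 in place of Cy3 and the scaling behind the bounds of the lists. The counting and limma steps were tested on simulated data. MUC5AC probe sequences are not reported here. Analyses used Python 3.11.15.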

Additional observations from a re-analysis of the deposited data

Results flagged for a closer look

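For 4 member probes kept on both arrays the knockdown ratio had opposite signs in the cell lines; the difference was not tested, as each line had 1 array. The log2 ratio in MKN45 minus that in MKN74 was 1.77 for the PGC downstream probe, -1.65 for TFF2, -0.46 for TFF1 and 0.26 for GAST. TFF1 is the one of the 4 with both channels measured on both arrays, and its difference has an error of 0.31 from the scanner software. The other 3 each rest on a dim control channel, in MKN45 for PGC and GAST and in MKN74 for TFF2.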

How the results depend on the processing

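No paired analysis with a replicate block was possible because each cell line had 1 array; siRNA and control were paired within each array, as the ratio. Of the member probes, 1 was past 1.5-fold lower and 2 higher in each line. In each line these counts became 0 and 0 with normexp and loess, and 0 and 1 at a 2-fold cutoff. With no filter the lower count became 2. The normexp offset of 50 pulls ratios and line differences at low signals toward 0. That setting therefore cannot show that a weak probe did not change. The higher count became 0 with both channels required. It was also 0 in the deposited table of log2 ratios, which holds 12 of the 19 kept member values. The higher member values are missing from that table, so its count of 0 was fixed in advance. For the wider list in MKN74, 0 lower and 1 higher became 4 and 4 with no filter, and the higher count became 0 with normexp or a 2-fold cutoff. In MKN45, 1 lower and 2 higher became 0 and 0 with normexp or a 2-fold cutoff and 6 and 4 with no filter, and the higher count became 0 with both channels required or in the deposited table. Centring on the median changed none of these counts. Each member probe had 1 spot per array and none was removed as an outlier, so keeping outlier spots could not change a member ratio. Normexp moved 6 of 19 member ratios by more than their error. The 1 member probe higher in MKN74 in Cy3 (PGC) became 0 with 75th percentile scaling, with no scaling and with normexp, and 3 in Cy5. The limma fit called 0 of 19595 probes, 553 lower and 1155 higher with normexp, and 2 lower with both channels required; no member was called under any setting. For these results the cause was not tested. Dim signals limit PGC, LIPF, ATP4A and the gastrokines, MUC6 probe 3, and the control channel of TFF2 in MKN74 and of GAST in MKN45.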
